A study of Danio rerio with 18 samples.

Results

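The comparison between male and female liver in the WIK strain of zebrafish rests on 6 of the 18 arrays of the study, those of 3 WIK males and 3 WIK females, which were chosen by the strain and the sex that the sample labels give. The other arrays held 6 fish of the AB strain and 6 fish of the TU strain and are used here only where a WIK difference is set against another strain. All fish were untreated adults of wild-type laboratory strains, raised from embryos of a stock centre and bred in 1 facility, with an age of 12 to 18 months in the labels. Sex was read at dissection from the presence of eggs or testes. Total RNA of the frozen liver of 1 fish was labelled with Cy3 and hybridized to each one-colour Agilent array, which held 43603 probes for 28404 transcript accessions. The comparison asks which transcripts differ between the sexes in this strain. Whole liver was measured, so fewer cells of a type and less RNA per cell cannot be told apart.

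In egg-laying vertebrates the adult female liver makes vitellogenins, the precursors of egg yolk, when estrogen from the ovary binds its nuclear receptor Esr1 in hepatocytes. Vitellogenins enter the endoplasmic reticulum during synthesis, are glycosylated and phosphorylated, pass the Golgi apparatus and reach the oocytes through the blood. In both sexes hepatocytes also secrete clotting factors, complement and lipoproteins, keep blood glucose and amino acids in balance, and conjugate steroids and drugs for excretion.

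Values below are log2 intensities after background correction and quantile normalization, so a difference of 1 is a 2-fold difference. Differences are given as male minus female, and a positive value means higher signal in males. A probe was called at a Benjamini-Hochberg adjusted p of at most 0.05 over all probes in limma and at least a 2-fold difference. Between 50.7% and 66.6% of spots were well above background in the males and between 44.9% and 58.2% in the females, and 0 spots were saturated. Correlations between arrays over all probes were 0.963 to 0.992 among males, 0.948 to 0.968 among females and 0.913 to 0.944 between the sexes. Each fish is 1 array, so p-values measure only the spread between these fish, and the number of arrays limits the precision.

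The defining genes of hepatocytes were among the brightest on all 6 arrays, with a mean over 14 markers of 16.22, 16.63 and 16.32 in the males and 15.19, 15.51 and 15.37 in the females. WIK male 3 stood apart from the other males in exocrine pancreas markers, whose mean over 18 genes was 16.09 there, 12.51 and 12.68 in the other males and 10.71 to 13.61 in the females. Trypsinogen prss1 was at 18.41 in WIK male 3 against 15.95 and 16.07 in the other males. All 18 pancreas markers had a positive difference (median 1.48), but 0 were called by limma, 0 had an unadjusted p under 0.05 and 0 separated the sexes.

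Ovary markers were at a mean of 6.03 to 6.15 in the males, which is the level of probes at background, and at 9.05, 7.46 and 6.38 in females 1, 2 and 3. Of the 32 ovary genes, 25, 20 and 9 were well above background in females 1, 2 and 3, and 2, 4 and 9 in males 1, 2 and 3. The egg coat gene zp3 was at 12.75 and 10.87 in females 1 and 2 and at 6.07 in female 3, next to 6.02 to 6.21 in the males. Of this list, zp3b was called higher in females, at 10.49, 9.04 and 8.45 against 5.90 to 6.20 in males (limma adjusted p = 0.0446, 0.0944 with the replicate block described below). Intestine markers had their highest mean in female 2, 10.68 against 7.96 and 8.82 in the other females and 7.99 to 8.62 in the males, with the intestinal fatty acid carrier fabp1b.1 at 14.58 in female 2 and at 6.61 to 9.37 elsewhere. The 22 testis markers had means of 6.57 to 6.62 in males and 6.40 to 6.45 in females, and 2 were called, hsd17b3, described below, and the cilium gene spag6 (difference 2.18, limma adjusted p = 0.0187, 0.0772 with the block); the meiotic gene sycp3 lay at background level. Erythrocyte markers had a mean of 7.79 to 8.08 in males and 7.25 to 7.69 in females. The part of these other tissues in the results was not tested.

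**Figure D1:**
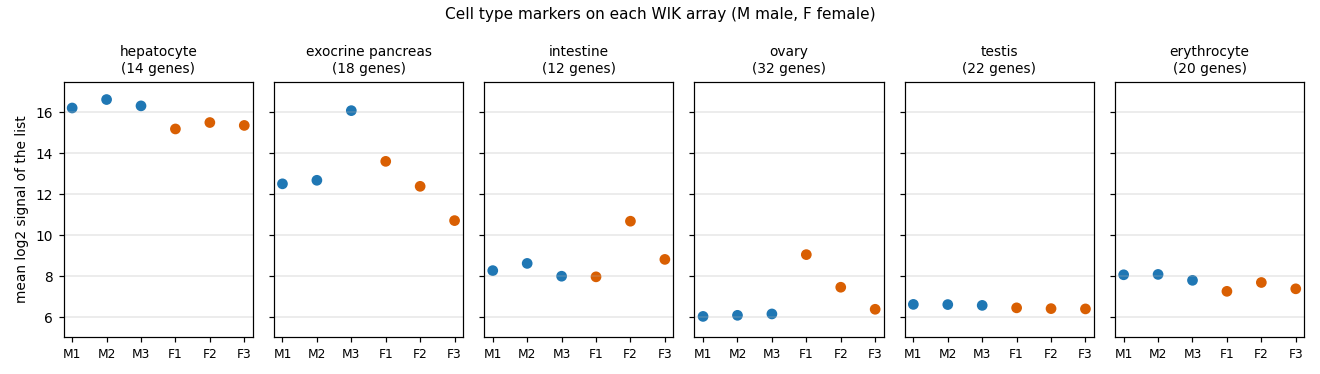
Mean log2 intensity of 6 marker lists on each of the 6 WIK arrays, males 1 to 3 and then females 1 to 3, with 1 point per array. Hepatocyte markers lie above 15 on all arrays, pancreas markers are highest in male 3 at 16.09, and ovary markers run from 6.38 to 9.05 in females.

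Between the sexes, 607 probes for 437 accessions were called, 1.39% of all probes. They divide into 266 (0.61%) with higher signal in males and 341 (0.782%) with higher signal in females. Before adjustment, 6521 probes had a p under 0.05; the lowest adjusted p was 0.000331. The called probes with a gene symbol stood for 335 genes, 155 higher in males and 180 in females, with 0 genes called in both directions, and 108 called probes had no symbol. At all 607 probes the 3 males and the 3 females did not overlap, which was also true of 1891 genes (13.9% of 13568 named genes, each at its brightest probe) with all males higher and of 1311 genes (9.66%) with all females higher. By gene, 120 (0.884%) were called higher in males and 144 (1.06%) in females at the brightest probe, and 2621 (19.3%) had an unadjusted p under 0.05.

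Same-numbered males and females lay on 1 slide and were scanned together. When the number was fitted as a block, the calls fell to 272 (0.624%), 106 (0.243%) higher in males and 166 (0.381%) in females, and 226 of them were among the 607 of the plain fit. Fitted as a random block instead, the slide gave 902 calls, 435 higher in males and 467 in females. The block named below is the fixed one. Without 1 fish in turn the count ran from 84, without WIK male 2, to 937, without WIK male 3, and was 119 without WIK male 1 and 326 without WIK female 2. A core of 78 probes, 20 higher in males and 58 in females, was called in the plain fit and in all 6 fits with a fish left out, and all 78 were also called with the block. The split between the sexes moved with the scaling of the arrays. Of the calls, 43.8% were higher in males here, 26.1% on the processed signal of the scanner after 75th percentile scaling and 12.1% under median scaling of the arrays.

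**Figure D2:**
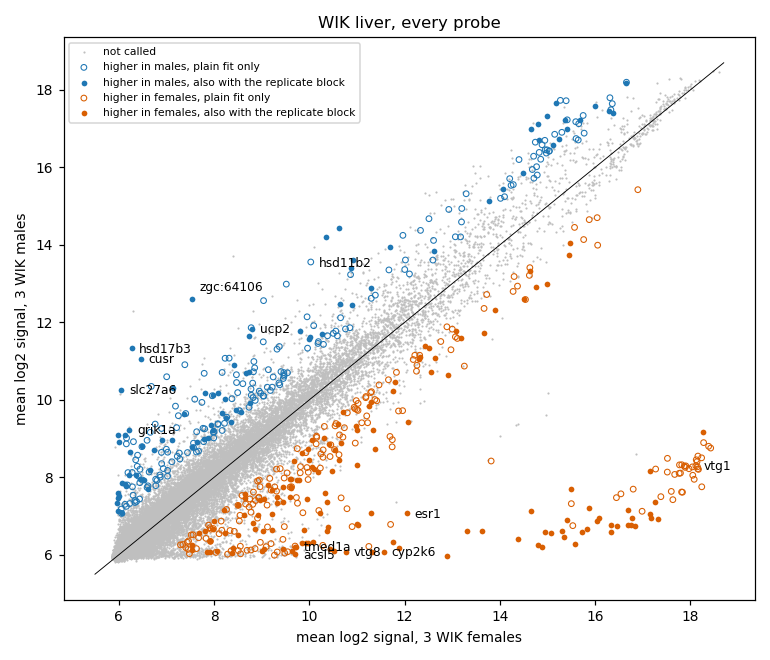
Mean log2 intensity of each of the 43603 probes in 3 WIK females (horizontal axis) and 3 WIK males (vertical axis); called probes are coloured by direction and filled where they were also called with the replicate block. The called probes farthest from the diagonal are higher in females, with a group near 18 in females that lies below 10 in males.

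Probes of a gene often differed in their calls. Of the 335 called genes, 257 had several probes, of which 49 had all probes called and 208 had another probe that was not called. Another probe had a difference under 0.5 in size for 101 genes and the opposite sign for 48. Gene families are therefore described at the brightest probe of each gene, and counts include every member on the array. Over all named genes the median difference was 0.02 and 53.3% of genes had a positive difference. Of these genes 0.884% were called higher in males and 1.06% in females, and 19.3% had an unadjusted p under 0.05. Every list count below is to be read beside these shares.

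The largest differences between the sexes were in the vitellogenins, and all 8 genes of the family on the array were called higher in females, with a median difference of -9.68. Probe vtg1 read 17.98, 18.29 and 18.08 in the females and 6.40, 6.94 and 11.54 in the males, a difference of -9.82 ± 1.36 (SE, n = 3 per sex). For vtg3, which encodes a short vitellogenin without the phosphate-rich domain, the values were 15.96, 14.89 and 17.29 in females and 6.04, 5.94 and 8.62 in males. The sexes did not overlap for any gene of the family, and the males themselves differed, with male 3 more than 2 log2 units above the other males at the brightest probe of every gene but vtg8.

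Vitellogenin probes took 16.7%, 16.7% and 16.9% of the background-subtracted signal in the 3 females and 0.0027%, 0.0036% and 0.117% in the 3 males. The exception to the high values of male 3 was vtg8, which was at background level in all males (6.09, 6.10 and 6.05) and at 11.33, 10.23 and 10.75 in the females. As 0 male arrays were well above background, vtg8 was at least 25.8-fold higher in females, where the female mean is set against a male mean that takes, on each array, the vtg8 signal itself or the dimmest signal the scanner could tell from background, whichever was higher (here the vtg8 signal). Of 62 vitellogenin probes, 61 were called, 25 were also called with the block and 18 were called in every fit with a fish left out.

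The spread of male 3 entered the tests of this family. The limma adjusted p was 0.0314 for vtg1, 0.0293 for vtg2, 0.0149 for vtg3, 0.0129 for vtg7 and 0.00307 for vtg8. With the block, 3 of the 8 genes stayed called at their brightest probe, namely vtg3 (adjusted p = 0.0217), vtg7 (0.0484) and vtg8 (0.0358), and vtg1 (0.0699) and vtg2 (0.0628) did not. Without male 3 all 8 genes were called, without male 1 or without male 2 only 1 was, and without any 1 female 2 or 3 were. Paralogs of this family are near-identical in part, so a probe may read more than 1 gene.

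Genes around estrogen action were few on the array, and 3 of 13 were called, all higher in females, against 1.06% of all genes. The estrogen receptor esr1 was at 12.33, 11.43 and 12.40 in females and 7.16, 7.05 and 7.03 in males, a difference of -4.97 ± 0.27 (limma adjusted p = 0.00263, 0.0337 with the block). The other estrogen receptors of the nuclear family were not called, with differences of -0.05 for esr2a and -0.42 for esr2b. The transcript of nothepsin (nots), an aspartic protease of the fish liver, read 17.20, 16.16 and 15.99 in females and 6.37, 6.60 and 9.46 in males at its brightest probe, with male 3 again above the other males. That probe lost its call with the block (adjusted p = 0.0618 against 0.0144), and the other nots probe kept it (-9.54 ± 0.56, adjusted p = 0.00307, 0.0398 with the block).

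The androgen receptor ar was also called higher in females, at 11.51, 11.71 and 11.17 against 10.43, 10.38 and 10.35, but not with the block (adjusted p = 0.0296 and 0.0659), and its difference of -1.08 became 0.019 under median scaling. Its 4 other probes differed by -1.09 to -0.44, and 0 of them were called. The sex steroid carrier shbg had a positive difference of 0.78 in 3 males over 3 females without overlap, short of the 2-fold cutoff.

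**Figure D3:**
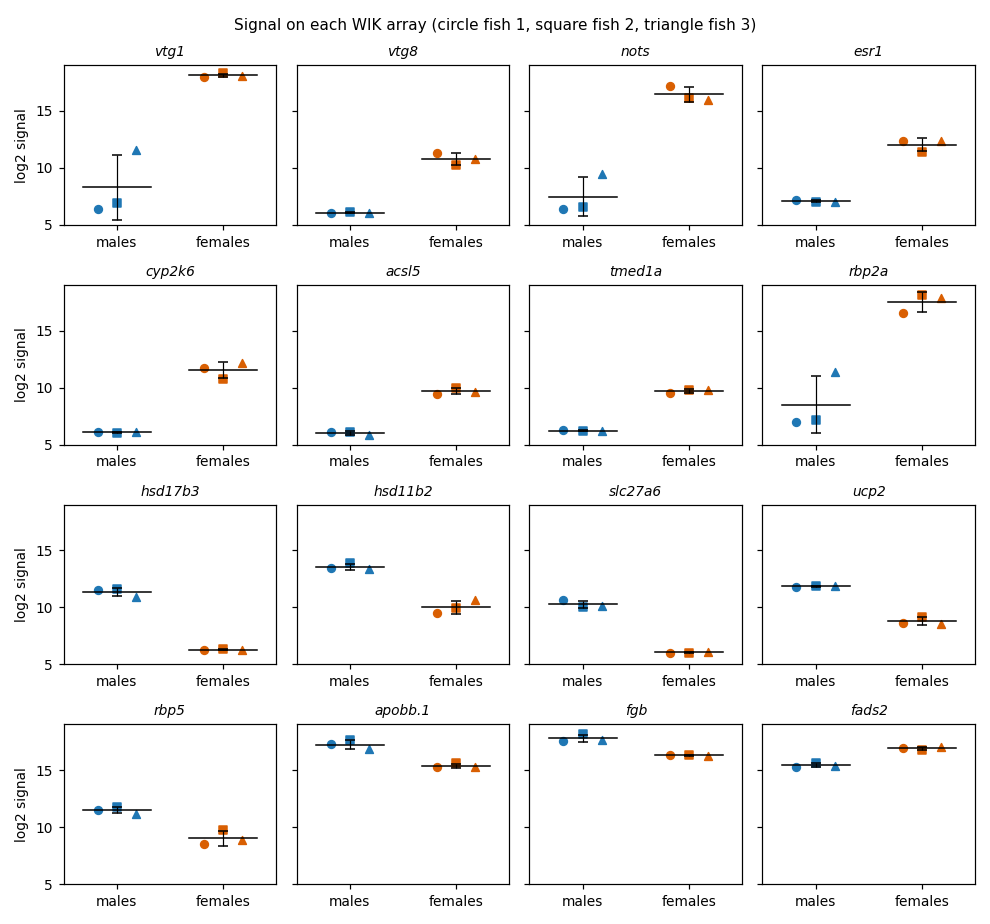
Log2 intensity of 16 genes on each WIK array, with males and females as separate points, the mean as a line and the SD of 3 fish as a bar. In the vtg1, nots and rbp2a panels 1 male lies above the other males, but not in the vtg8 panel. The genes hsd17b3, tmed1a, acsl5 and slc27a6 have a small spread within each sex.

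Of 26 enzymes of steroid synthesis and breakdown, 2 were called, both higher in males, against 0.884% of all genes. The median difference of the list was 0.09. The enzyme hsd17b3, which turns androstenedione into testosterone, was at 11.50, 11.57 and 10.91 in males and at 6.23, 6.32 and 6.26 in females, a difference of 5.06 ± 0.18 (limma adjusted p = 0.000786, 0.022 with the block). The enzyme hsd11b2, which oxidises cortisol and takes part in making the fish androgen 11-ketotestosterone, was at 13.49, 13.85 and 13.33 in males and 9.49, 9.98 and 10.62 in females (difference 3.53 ± 0.31, adjusted p = 0.0104). Its call was lost with the block (adjusted p = 0.0523). The call of hsd17b3 held in all 6 fits with a fish left out.

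Of 49 retinoid genes 1 was called higher in each sex, with a list median of -0.01. Over all genes 0.884% were called higher in males and 1.06% in females. With the block neither retinoid gene was called, and the carrier rbp2b was called higher in males (difference 1.82, limma adjusted p = 0.0432, 0.062 in the plain fit). The cellular retinol carrier rbp2a was at 16.53, 18.15 and 17.87 in females and at 6.96, 7.13 and 11.38 in males (difference -9.03 ± 1.28, limma adjusted p = 0.0329, 0.0627 with the block). A second probe for rbp2a differed by -0.22, so the large difference rests on 1 probe. The related carrier rbp5 was higher in males, at 11.54, 11.77 and 11.18 against 8.48, 9.76 and 8.86 (difference 2.46 ± 0.35, adjusted p = 0.0338, 0.0576 with the block).

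Genes for entry of proteins into the endoplasmic reticulum, namely signal recognition, the translocation channel, signal cleavage and N-glycosylation, had a median difference of -0.58 over 46 genes, and 43 of the 46 lay below 0; relative to all probes the median ran from -0.63 to -0.57 under 5 of the 6 scalings, and was 0.25 under median scaling. In 19 of the 46 genes all females were above all males, against 9.66% of all genes, and the reverse held for 1. Only ssr3, a subunit of the translocon-associated complex, passed the test at its brightest probe, at 15.63, 15.50 and 15.58 in females and 14.32, 14.52 and 14.51 in males (difference -1.12 ± 0.09, limma adjusted p = 0.00795, 0.0524 with the block). At an unadjusted p under 0.05 the list held 20 genes (43.5%) with lower signal in males and 0 with higher signal, against 19.3% of all genes in either direction. With the block 3 were called higher in females, srp19, ssr2 and sec61a1a (limma adjusted p = 0.0368, 0.047 and 0.0499). Other probes of the same complex and channel that were not the brightest were called too, a choice made after their values were seen, among them ssr1 at -1.82 ± 0.08 (adjusted p = 0.00146, 0.0294 with the block) and sec61a1a at -1.55 ± 0.10 (adjusted p = 0.00482, 0.0445 with the block). The brightest ssr1 and sec61a1a probes differed by -1.26 and -1.31 and missed the threshold (adjusted p = 0.0847 and 0.0521).

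Between the endoplasmic reticulum and the Golgi apparatus the cargo handling genes were called in both directions, with 3 of 63 called higher in females and 1 in males. Over all genes 1.06% and 0.884% were. The list median of -0.12 was -0.21 to -0.11 relative to all probes under 4 scalings, 0.14 on the scanner's signal and 0.84 under median scaling. The cargo receptor gene tmed1a, of the p24 family, shared the lowest adjusted p of the comparison with several other probes, at 9.56, 9.76 and 9.84 in females and 6.26, 6.17 and 6.21 in males (difference -3.50 ± 0.09, limma adjusted p = 0.000331, 0.0198 with the block). The gene mcfd2, whose human counterpart helps to carry clotting factors out of the endoplasmic reticulum, was at 13.18, 12.79 and 13.79 in females and 10.76, 10.86 and 10.99 in males (-2.38 ± 0.26, adjusted p = 0.0172, 0.0507 with the block). Receptors that return resident proteins to the endoplasmic reticulum differed in direction. Of these, kdelr2b was higher in females (-1.54 ± 0.23, adjusted p = 0.0388, 0.0444 with the block) and kdelr3 was higher in males (1.24 ± 0.20, adjusted p = 0.047, 0.0599 with the block). The 3 other kdelr3 probes differed by 0.39 to 0.61 and were not called, nor was the other kdelr2b probe, at -1.27. Each of the 2 calls held in only 1 of the 6 fits with a fish left out.

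In the list of chaperones, disulfide enzymes and stress factors of the endoplasmic reticulum, the median was 0.08. Of its 61 genes 2 were called, both higher in females, against 1.06% of all genes. These were the prolyl isomerase fkbp2 (-1.33 ± 0.21, limma adjusted p = 0.0418, 0.0434 with the block) and os9, which marks misfolded glycoproteins for degradation (-1.13 ± 0.14, adjusted p = 0.0249, 0.0651 with the block). For fkbp2 the females were at 11.41, 12.04 and 11.93 and the males at 10.20, 10.56 and 10.62.

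Of 85 cytosolic ribosomal proteins and 97 ribosome biogenesis genes, 0 were called by limma in either fit, with 6 and 19 at an unadjusted p under 0.05. These are 7.06% and 19.6% of the lists, against 19.3% of all genes. Their median differences were -0.01 and -0.15; relative to all probes the first was -0.93 on the scanner's signal, and the second was 0.11 there and 0.68 under median scaling. Among 80 translation factors 1 was called, eif4ebp3l, which belongs to the inhibitors of cap-dependent initiation, at 13.39, 13.50 and 12.80 in males and 10.67, 10.94 and 10.99 in females (difference 2.37 ± 0.21, adjusted p = 0.0106, 0.0544 with the block). Over all genes 0.884% were called higher in males. Of 17 aminoacyl-tRNA synthetases the isoleucine enzyme iars1 was called higher in females (-1.29 ± 0.15, adjusted p = 0.0195, 0.0368 with the block), against 1.06% of all genes.

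**Figure D4:**
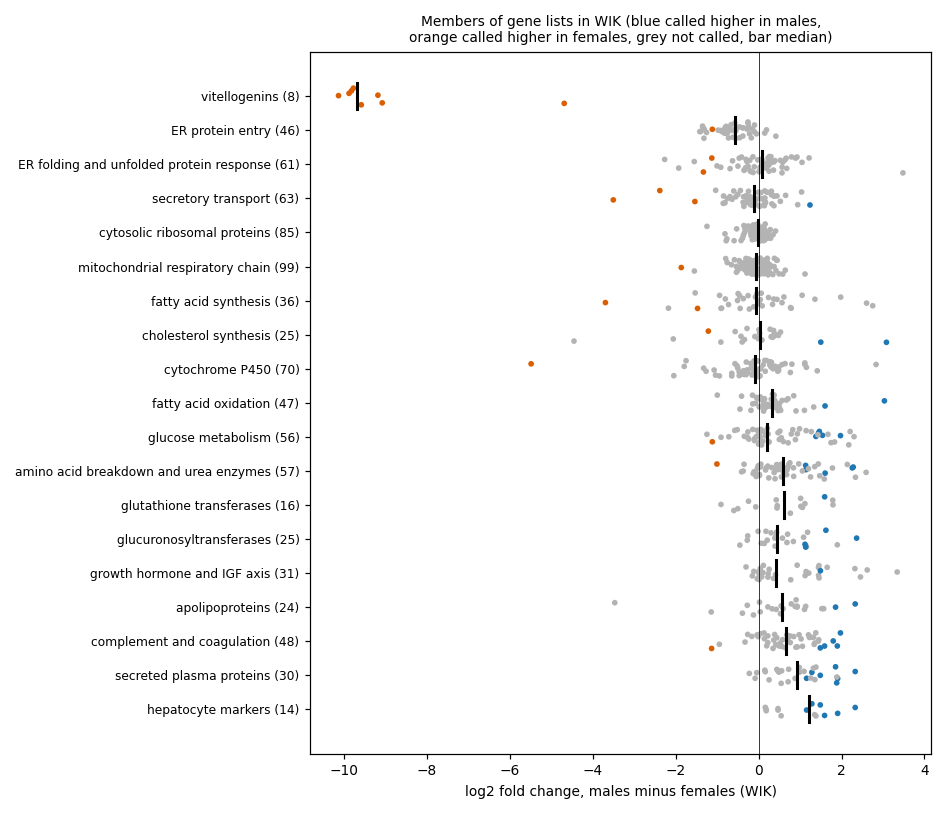
Log2 difference between males and females of each gene in 19 lists, 1 point per gene at its brightest probe, with the list median as a line and called genes coloured. The vitellogenins lie apart at a median of -9.68, protein entry into the endoplasmic reticulum lies below 0 (its median is 0.25 above that of all probes under median scaling), and secreted plasma proteins and amino acid breakdown lie mostly above 0.

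Plasma proteins other than vitellogenin were called higher in males for 7 of 30 genes, against 0.884% of all genes. In the other direction 0 were called, and the median was 0.93. It was 0.47 to 1.37 relative to all probes under the 6 scalings, and 0.17 itself on the scanner's signal. All probes include those at background. Under median scaling the proteasome (0.92) and lysosome (0.94) lists also lay above them, with amino acid transporters at 0.07 and ovary markers at -0.90. The ranges given here and below therefore do not by themselves set a list apart. All males were above all females in 19 of the 30, against 13.9% of all genes. The called members were the lipoprotein genes apoa1a and apobb.1, the fibrinogen chain fgb, the fibronectin fn1b, the copper carrier cp, the fetuin ahsg2 and ambp, the precursor of the bikunin protease inhibitor. For fn1b the males were at 16.79, 16.87 and 16.43 and the females at 14.62, 14.94 and 14.89 (difference 1.88 ± 0.15, limma adjusted p = 0.00845, 0.0484 with the block). The 3 other fn1b probes differed by 0.78 to 1.15, and 1 of them was called. For apobb.1, which encodes the core protein of very low density lipoprotein, the males were at 17.25, 17.59 and 16.84 and the females at 15.25, 15.59 and 15.27 (difference 1.86 ± 0.21, adjusted p = 0.0201, 0.0436 with the block).

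Only those 2 of the 7 genes were also called with the block. Without 1 fish the number of called plasma proteins ran from 0, without WIK male 1, to 6, without WIK male 3. On the scanner's processed signal and after median scaling 0 were called, and cp, at 17.13, 17.80 and 17.53 in males and 16.43, 16.26 and 16.31 in females, fell from a difference of 1.16 to -0.10 on the scanner's signal.

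The hepatocyte markers overlap with this group, and all 14 had a positive difference, against 53.3% of all genes, with 6 called. Their median of 1.22 was 0.47 to 1.31 relative to all probes under the 6 scalings, and 0.17 itself on the scanner's signal. The differences ranged from 0.16 for the thyroid hormone carrier ttr and 0.18 for the fatty acid carrier fabp10a, which were not called, to 2.33 for apoa1a. The values of apoa1a, the main protein of high density lipoprotein, were 17.84, 18.05 and 17.27 in males and 14.84, 16.03 and 15.31 in females (limma adjusted p = 0.0393, 0.0628 with the block). With the block 0 of the 14 were called. Of 24 apolipoproteins, 2 were called, again apoa1a and apobb.1, against 0.884% of all genes called higher in males. A positive difference was seen in 19 and the median was 0.57. That median was 0.37 to 1.00 relative to all probes under the 6 scalings, and 0.07 itself on the scanner's signal.

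Complement and coagulation genes were called higher in males for 5 of 48 and higher in females for 1, against 0.884% and 1.06% of all genes. The median was 0.66, with a positive difference in 41 of 48. Relative to all probes the median was 0.65 to 1.60 under the 6 scalings. The 5 were the fibrinogen chains fgb and fgg, plasminogen plg, protein S pros1 and the complement subunit c8g. For fgb the males were at 17.58, 18.15 and 17.66 and the females at 16.30, 16.36 and 16.27 (difference 1.49 ± 0.16, limma adjusted p = 0.018, 0.0527 with the block). For c8g the males were at 10.54, 11.09 and 10.55 and the females at 8.79, 8.63 and 9.06 (1.90 ± 0.19, adjusted p = 0.0149, 0.0661 with the block).

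The 1 gene of this list that was called higher in females was tfpia, an inhibitor of the tissue factor pathway (-1.13 ± 0.14, limma adjusted p = 0.0233, 0.0612 with the block). None of the 48 genes was called with the block, whereas 24 had an unadjusted p under 0.05 in the plain fit. Without WIK male 1 or WIK female 2 the count of genes higher in males was 0, and without WIK male 3 it was 9.

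Enzymes of amino acid breakdown and nitrogen handling were called higher in males for 5 of 57 genes and higher in females for 1. Over all genes 0.884% and 1.06% were. The list median was 0.60, and 47 of the 57 genes had a positive difference. In 28 of them all males lay above all females, against 13.9% of all genes. The called genes higher in males were tdo2b, the first enzyme of tryptophan breakdown, the alanine-glyoxylate aminotransferase genes agxta and agxtb, ftcd of histidine breakdown and hibadha of valine breakdown. For tdo2b the males were at 14.29, 14.71 and 13.74 and the females at 11.58, 12.30 and 12.02 (difference 2.28 ± 0.30, limma adjusted p = 0.0278, 0.0584 with the block). With the block agxtb was the 1 gene of the list that was called (difference 2.26 ± 0.36, adjusted p = 0.0457 and 0.0398), at 14.21, 14.30 and 13.33 in males and 12.18, 11.72 and 11.16 in females. Without WIK male 1 or without WIK male 2, 0 genes of the list were called higher in males, and without WIK male 3 there were 7.

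In the list of amino acid transporters calls went in both directions, with 4 of 41 genes higher in males and 1 in females. Over all genes 0.884% and 1.06% were. The list holds slc43 family members, which need not all carry amino acids. The neutral amino acid carriers slc38a3a and slc38a4 and the slc43 family members slc43a2a and slc43a3b were higher in males, by 2.61, 1.46, 1.27 and 2.19. Another slc43 member, slc43a1a, was higher in females, at 12.26, 11.23 and 11.59 against 8.64, 8.82 and 9.70 (difference -2.64 ± 0.37, limma adjusted p = 0.0331, 0.0855 with the block). Of the 5 genes only slc43a2a was called with the block (adjusted p = 0.0432), and the second probe of slc38a3a differed by 0.04.

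Glucose metabolism had 5 of 56 genes called higher in males and 1 in females, against 0.884% and 1.06% of all genes, and its median was 0.19. The gluconeogenic enzyme fbp1b was at 15.72, 16.01 and 15.85 in males and 14.33, 14.55 and 14.56 in females (difference 1.38 ± 0.11, limma adjusted p = 0.00845, 0.0361 with the block). Its paralog fbp1a was at 11.42, 11.68 and 12.03 in males and 9.93, 10.24 and 10.63 in females (1.44 ± 0.23, adjusted p = 0.0467, 0.0337 with the block). Pyruvate carboxylase pcxb, which feeds gluconeogenesis, the lactate dehydrogenase subunit ldhba and the enolase eno3 were higher by 1.97, 1.46 and 1.54 in males. The glycogen primer gyg1a was higher in females by a difference of -1.12 (adjusted p = 0.00869, 0.0523 with the block). Its 3 other probes differed by -1.30 to 0.11, and 2 of them were called. Without 1 fish the number of genes higher in males ran from 0, without WIK male 2, to 6, without WIK male 3. With the block 3 genes were called higher in males, both fbp1 genes and ldhbb, which the plain fit did not call, and 0 in females.

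In the list of synthesis, elongation and desaturation 2 of 36 were called, both higher in females, against 1.06% of all genes. The acyl-CoA synthetase acsl5 was at a mean of 9.71 ± 0.27 (SD) in females and at background in males (6.09, 6.13 and 5.81), at least 12.95-fold higher in females (difference -3.69 ± 0.17, limma adjusted p = 0.00146, 0.0251 with the block). The desaturase fads2, which makes long-chain polyunsaturated fatty acids, was at 16.94, 16.76 and 17.00 in females and 15.28, 15.62 and 15.38 in males, and its 6 other probes differed by -2.10 to -1.62, all called. With the block the call of fads2 was lost (adjusted p = 0.0568 against 0.00845).

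In the list of beta-oxidation and its regulators, 2 of 47 genes were called, both higher in males, against 0.884% of all genes. A positive difference was seen in 38 of 47 and the median was 0.33. The called genes were the uncoupling protein ucp2, also counted with the mitochondrial carriers, and the pyruvate dehydrogenase kinase pdk2b. Neither is an enzyme of beta-oxidation, so no such enzyme was called at its brightest probe. The values of ucp2 were 11.76, 11.88 and 11.86 in males and 8.67, 9.19 and 8.53 in females (difference 3.03 ± 0.18, limma adjusted p = 0.00321, 0.0358 with the block). The very long chain fatty acid transporter slc27a6 was called higher in males, at 10.64, 10.02 and 10.13 against 6.03, 6.01 and 6.12, at least 18.5-fold since 0 female arrays were well above background (adjusted p = 0.00125, 0.0251 with the block). The mitochondrial carrier slc25a48 had higher values in all males, 13.21, 13.93 and 13.40 against 10.09, 11.59 and 11.69, but was not called (difference 2.39 ± 0.47, adjusted p = 0.0782, 0.0732 with the block).

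Cholesterol genes had 2 of 25 called higher in males and 1 in females, against 0.884% and 1.06% of all genes, and the median was 0.02. The lipoprotein receptor ldlra was at 12.83, 11.91 and 10.84 in males and 8.62, 8.94 and 8.77 in females (difference 3.08 ± 0.49, limma adjusted p = 0.045, 0.0898 with the block), and fdps of the isoprenoid route was higher in males by 1.50 ± 0.18 (adjusted p = 0.0228, 0.0627 with the block). The other fdps probe differed by 0.51 and was not called. The late enzyme sc5d was higher in females, at 10.45, 10.44 and 10.90 against 9.40, 9.15 and 9.60 (-1.21 ± 0.18, adjusted p = 0.0362, 0.0469 with the block). The rate-limiting reductase gene hmgcra was not called at its brightest probe (-4.45 ± 0.93, adjusted p = 0.0884), where the males were at 6.20, 6.36 and 9.53 and the females at 11.55 to 12.28; that gene was picked after its values were seen.

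The cytochrome P450 family had a median of -0.08. Of its 70 genes 1 was called, against 0.884% of all genes called higher in males and 1.06% in females. That gene was cyp2k6, of a subfamily known from fish, at 11.72, 10.79 and 12.20 in females and at background in males (6.11, 6.05 and 6.09), at least 44.8-fold higher in females (limma adjusted p = 0.00402, 0.0361 with the block). The brightest member, the dioxin-inducible cyp1a, was at 14.79, 15.13 and 14.43 in males and 13.63, 13.92 and 13.47 in females and was not called (difference 1.11 ± 0.21, adjusted p = 0.0703), but with the block it was called higher in males (adjusted p = 0.0479). At an unadjusted p under 0.05, 9 genes of the family lay higher in males and 11 lay higher in females. Together these are 28.6% of the list, against 19.3% of all genes.

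Glucuronosyltransferases were called higher in males for 4 of 25 genes and in females for 0, against 0.884% and 1.06% of all genes. A positive difference was seen in 21 of 25, against 53.3% of all genes. The median was 0.43, which was 0.41 to 1.45 relative to all probes under the 6 scalings. All 4 belonged to the ugt5 family, namely ugt5a1 (1.62), ugt5a4 (2.36), ugt5b6 (1.12) and ugt5d1 (1.14). For ugt5b6 the males were at 9.52, 9.77 and 9.77 and the females at 8.49, 8.57 and 8.65, and it alone was called with the block (limma adjusted p = 0.0108 and 0.0436). Members of this family share long stretches of sequence, and reads of one gene by the probe of another were not analysed here.

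Of 16 glutathione transferases, 1 was called, gstt1b, which was higher in males at 13.68, 13.73 and 13.42 against 11.74, 12.25 and 12.06 (difference 1.59 ± 0.16, limma adjusted p = 0.0149, 0.0564 with the block). Over all genes 0.884% were called higher in males. The list median was 0.61. Of 17 sulfotransferases 0 were called by limma, with 3 at an unadjusted p under 0.05 (17.6%). For 22 ABC transporters limma also called 0, with 3 at an unadjusted p under 0.05 (13.6%). Both shares lie below the 19.3% of all genes.

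In the growth hormone and insulin-like growth factor axis, 26 of 31 genes had a positive difference, against 53.3% of all genes, and the median was 0.41. Only the binding protein igfbp5b was called, against 0.884% of all genes called higher in males. It was at 9.45, 10.06 and 9.46 in males and 8.17, 8.49 and 7.84 in females (difference 1.49 ± 0.24, limma adjusted p = 0.0462, 0.0437 with the block). The 4 other probes of igfbp5b differed by 0.18 to 1.16, and 1 of them was called. The call at the brightest probe was lost in each of the 6 fits with a fish left out. The growth factor igf1 differed by 0.93 and igfbp1a by 2.46, and neither was called (adjusted p = 0.587 and 0.156).

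Iron genes were called in both directions, 2 of 31 higher in females and 1 in males, against 1.06% and 0.884% of all genes. The first enzyme of heme synthesis, alas1, was at 14.06, 14.39 and 14.39 in females and 12.90, 12.89 and 12.61 in males (-1.48 ± 0.13, limma adjusted p = 0.0117, 0.059 with the block), and the iron importer slc11a2 was higher in females by a difference of -1.52 (adjusted p = 0.0108, 0.0618 with the block). The ferroxidase cp, described with the plasma proteins, was the 1 gene of 31 that was called higher in males, and 0 of the 31 were called with the block (adjusted p = 0.104 for cp). Matrix genes had 4 of 58 called, all higher in males, against 0.884% of all genes. These were fn1b, the protease inhibitor timp2a, the gelatinase mmp2 and the matricellular gene ccn2a. The means of timp2a were 10.03 ± 0.02 (SD) in males and 8.23 ± 0.26 in females (difference 1.79 ± 0.14, adjusted p = 0.00769, 0.047 with the block), with differences of 0.12 and 0.71 at its other probes. The calls of mmp2 and ccn2a were lost with the block (adjusted p = 0.0613 and 0.0519). The difference of ccn2a was 2.65 at this probe and 0.45 and 1.29 at its 2 other probes, of which 1 was called.

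Of 42 clock genes 1 was called, nfil3-5, and of 36 acute phase and cytokine genes 1 was called, btg2. Both were higher in males, against 0.884% of all genes. The clock list had 21 genes above and 21 below 0. The antiproliferative gene btg2 was at 10.30, 10.54 and 9.71 in males and 7.94, 8.22 and 7.28 in females (difference 2.38 ± 0.32, limma adjusted p = 0.029, 0.0198 with the block). The transcription factor nfil3-5, of a family that represses clock output genes, was at 11.15, 11.01 and 10.54 in males and 8.88, 8.54 and 7.83 in females (2.48 ± 0.31, adjusted p = 0.0242, 0.0337 with the block). The call of btg2 held in 1 of the 6 fits with a fish left out and that of nfil3-5 in 3. The 2 other btg2 probes differed by 1.58 and 1.60 and were not called. Of 91 replication and mitosis genes, 1 was called in each direction, near the share of all genes (0.884% higher in males, 1.06% in females). For 57 proteasome, 63 lysosome, 45 oxidative stress and 28 interferon genes limma called 0, with 5, 15, 15 and 4 at an unadjusted p under 0.05 (8.77%, 23.8%, 33.3% and 14.3%, against 19.3% of all genes).

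The highest difference in males among probes with a symbol was at zgc:64106, whose function the tables used do not give, and cusr was at 11.17, 11.44 and 10.58 in males and 6.27, 6.63 and 6.50 in females (difference 4.60 ± 0.24, limma adjusted p = 0.0022, 0.0311 with the block), although its other probe differed by 1.51. The kainate receptor subunit grik1a was at 9.21, 9.37 and 9.11 in males and 6.58, 6.05 and 6.03 in females (3.01 ± 0.17, adjusted p = 0.00303, 0.0361 with the block). The glutathione-degrading enzyme chac1, which the list of the unfolded protein response holds at a brighter probe that was not called (difference 3.48, adjusted p = 0.0727), was at 12.84, 13.29 and 11.55 in males and 8.34, 9.70 and 9.07 in females (3.52 ± 0.55, adjusted p = 0.0426, 0.0703 with the block).

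Among the 88 called values at the genes named by rule, 32 were also called with the block and 13 in all 6 fits with a fish left out. With the slide as a random block all 88 kept their call. The 13 were vtg8 and 1 probe each of vtg7 and nots, esr1, cyp2k6, acsl5 and tmed1a, all higher in females, and hsd17b3, slc27a6, ucp2, grik1a, cusr and zgc:64106, higher in males. For the other values the highest adjusted p came when WIK male 1 or WIK male 2 was left out. After median scaling and on the scanner's processed signal, 0 genes were called in the lists of plasma proteins, complement and coagulation, hepatocyte markers, apolipoproteins, amino acid breakdown, glucose metabolism and glucuronosyltransferases.

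Whether the sex difference in WIK differed from that in another strain was tested as an interaction in 1 limma fit of all 18 arrays. By the study's account AB livers were taken in the morning and those of WIK and TU in the afternoon, so in every contrast with AB the strain and the time of day cannot be told apart. Interactions were counted at an adjusted p of at most 0.05 without a fold cutoff, unlike the calls above. The sex difference in WIK differed from that in AB at 212 probes (0.486%), 158 with a more positive and 54 with a more negative difference in WIK, and 4301 probes had an unadjusted p under 0.05. It differed from TU at 34 probes (0.078%), with 2882 at an unadjusted p under 0.05, and at 96 probes (0.22%) without TU female 3, an array that stands apart from the other TU females. Both counts moved with single fish. Against TU there were 896 probes without TU male 2 and 127 without WIK male 3, and against AB from 82 (without WIK male 2) to 302 (without WIK male 3); median scaling left 24 against AB and 9 against TU. Of the 607 probes called in WIK, 40 differed from AB and 24 from TU, and 556 had the same sign in AB. The male and female arrays of WIK enter both contrasts, and the 607 probes were chosen by the WIK difference on these arrays. The 40 and 24, and interactions at genes named for a WIK call, depend partly on that choice and are no independent test. The share of all probes with the same sign in AB was not counted.

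Among the genes described above, cusr and sc5d differed from both strains. The gene cusr had a difference of 4.60 in WIK, 0.85 in AB and 0.01 in TU (interaction adjusted p = 0.000739 with AB and 0.000123 with TU). The sterol enzyme sc5d was lower in WIK males than in females, and its difference was 0.94 in AB and 1.97 in TU (adjusted p = 0.0483 and 0.0115). Against AB, kdelr3 (1.24 in WIK, -2.94 in AB, adjusted p = 0.00146) and chac1 (3.52 and -2.82, adjusted p = 0.0258) had opposite signs. The vitellogenins had a median of -9.68 in WIK, -9.87 in AB and -6.41 in TU (-8.70 without TU female 3), and for 0 of the 8 genes was the interaction with AB or TU past the threshold at the brightest probe.

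For genes of protein synthesis and secretion the medians are given as descriptions. The median over ribosome biogenesis was -0.15 in WIK, -1.16 in AB and -0.68 in TU, and over tRNA synthetases -0.30, -1.34 and -0.50. Over entry into the endoplasmic reticulum it was -0.58, -0.99 and -0.06, and over secretory transport -0.12, -0.68 and 0.20 in the same order. Without TU female 3 the TU medians were -1.18, -0.45, 0.02 and 0.38. The WIK medians of all 4 lists were above 0 under median scaling, between 0.25 and 0.84 relative to all probes. Of these 4 lists, 1 of 97, 0 of 17, 0 of 46 and 2 of 63 genes had an interaction with AB past the threshold. Over all named genes 89 of 13568 did. With TU the count was 0 in each list, against 16 of all named genes. Without TU female 3 it was 1, 0, 2 and 1, against 43 of all named genes. The pancreas markers, which were high in WIK male 3, had a median of 1.48 in WIK and -1.26 in AB.

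**Figure D5:**
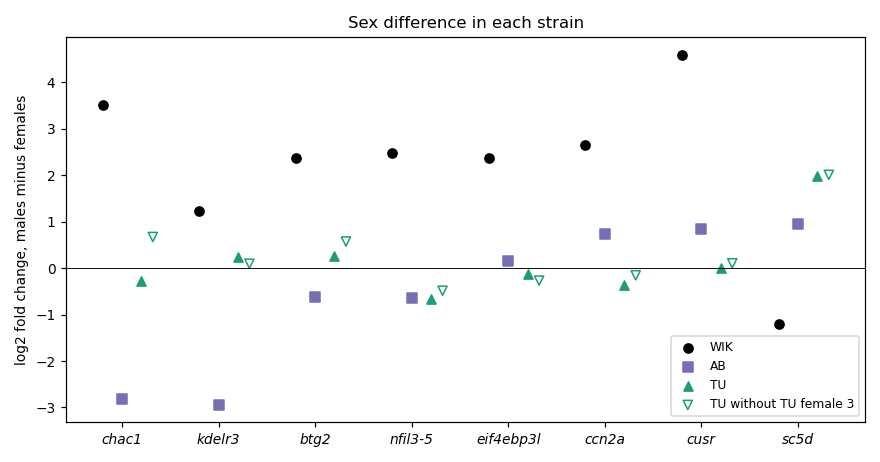
Log2 difference between males and females of 8 genes in WIK, AB, TU and TU without TU female 3, at the probe named in the text. The genes cusr, chac1 and kdelr3 are positive in WIK and near 0 or negative in at least 1 of the other strains, and sc5d is negative in WIK and positive in AB and TU.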

How the data were processed

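Liver RNA of 18 fish was measured with 1 array each. The authors deposited the scanner's median spot intensity and local background intensity, which were used here, and a log2 table with 1 value per accession, used only as an alternative. Values were background-corrected with normexp (offset 50) and quantile-normalized over 18 arrays in limma 3.58.1 (R 4.3.3). Outlier spots and 1417 control spots were left out and spots of a probe averaged. Names came for 26315 probes (60.4%), 26043 through a RefSeq table of assembly GRCz12tu and 272 from the paper's datasets, and gave 13568 symbols.

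The main model had no block. Males and females of the same number shared a slide and a scan in the array files. Their deviations from the group means correlated at 0.199, 0.126 and 0.117, against -0.18 to 0.016 for other pairs. Deviations cancel within each sex, so this contrast is partly built in, and the pairing rests on the shared slide and scan. Fits were tested on simulated data with independent noise on each array. The simulation had no slide effect and no outlying fish, so it does not cover the dependence on single fish. Named genes were, in each direction, the 8 largest called changes, for each list up to 4 called genes of lowest p and the 2 brightest measured genes, and those that the paper names for this comparison. Members and lists were chosen with earlier results of these data known. Alternatives changed the block, background, scaling, filter, cutoffs and fish. Figures were drawn with matplotlib 3.10.9. No sequences were read, and the match of probes to the WIK genome was not analysed here.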

Additional observations from a re-analysis of the deposited data

Results flagged for a closer look

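For 8 called genes that the naming rule chose, the sex difference in WIK differed from that of another strain by a limma interaction test in the fit of all 18 arrays, and the values here are the WIK difference minus that of the other strain on the log2 scale. These genes were chosen by their call on the same WIK arrays, so the interaction is no independent test and its size may be overstated. At cusr the value was 3.75 against AB and 4.58 against TU. At sc5d it was -2.16 against AB and -3.19 against TU. Against AB it was 6.34 at chac1, 4.18 at kdelr3, 3.13 at nfil3-5, 2.99 at btg2 and 2.205 at eif4ebp3l. Against TU it was 3.01 at the matrix gene ccn2a, at a probe with a WIK difference of 2.65. The 2 other ccn2a probes differed by 0.45 and 1.29 in WIK. Of these 8 genes, sc5d, btg2, nfil3-5 and cusr were also called in WIK with the replicate block, and chac1, kdelr3, eif4ebp3l and ccn2a were not. Leaving out TU female 3, the adjusted p against TU was 0.000813 for cusr, 0.0168 for sc5d and 0.0452 for ccn2a. The contrasts with AB are also contrasts of morning with afternoon collection, and the 2 cannot be told apart.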

How the results depend on the processing

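The replicate block, which pairs the males and females of 1 slide, called 272 probes, 106 higher in males and 166 in females, against 607, 266 and 341 without it. With the slide as a random block 902 probes were called, 435 higher in males and 467 in females. Median scaling gave 66 calls (8 and 58), the scanner's processed signal 306 (80 and 226), the authors' table, which has 28404 accessions in place of probes, 228 (116 and 112), a 4-fold cutoff 225 (69 and 156), and no fold cutoff 917, 433 of them higher in males. With only probes well above background on at least 3 arrays, 441 were higher in males. Leaving out 1 fish gave 84 to 937 calls, 25 to 546 higher in males and 59 to 391 in females; the extremes were without WIK male 2 and without WIK male 3. The difference between WIK and AB gave 329 probes with the slide as a random block, 24 under median scaling and 82 to 302 without 1 fish (82 without WIK male 2). That between WIK and TU gave 9 under median scaling, 96 without TU female 3 and 17 (without WIK male 2) to 896 (without TU male 2). Of the single genes, ar turned to 0.019 under median scaling and cp to -0.10 on the scanner's processed signal. The median of all probes was -0.30 on that signal and 0.01 here. Cyclic loess, quantile normalization of the 6 WIK arrays, no background correction, all 18 arrays in 1 model and robust eBayes kept the counts of calls in WIK within 1.5 times. The genes called were not all the same. Of the 88 called values at the genes named by rule, 47 kept their call with all 18 arrays in 1 model and 75 under cyclic loess. The causes were not tested. Dim probes give only bounds: 32 called probes had no array well above background in 1 sex.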

Other observations

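The genes below are in no list of the report and were chosen after their values were seen. Among the strongest differences with higher signal in females was gpbar1, a membrane receptor for bile acids, at 14.42, 13.95 and 14.79 in females and 6.02, 6.09 and 7.12 in males (difference -7.98 ± 0.36, limma adjusted p = 0.00146, 0.0198 with the block), which rests on 1 probe. The secretory pathway kinase genes fam20cl and fam20ca, of the family that in mammals phosphorylates secreted proteins, were at background in males and at least 118-fold and 7.43-fold higher in females (adjusted p = 0.00279 and 0.000331, 0.0359 and 0.0198 with the block). Both rarres3 and rarres3l, named for a retinoid-responsive gene of mammals, were higher in females, by -5.71 ± 0.16 and -6.72 ± 0.23, and rarres3l differed more in WIK than in AB, where the difference was -2.47 (interaction adjusted p = 0.00925). Isocitrate dehydrogenase idh1 was higher in females at 3 probes, with differences of -2.67, -2.64 and -2.30.

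The iodine-recycling iyd was higher in females (-3.73 ± 0.36, limma adjusted p = 0.014, 0.0394 with the block), and the activating deiodinase dio2 was higher in males at 3 of its 4 probes by 1.99 to 2.19, without a call under the block (adjusted p = 0.058 to 0.0681). The liver-enriched secreted genes leg1.1 and leg1.2 were higher in males, leg1.1 at 17.72, 17.82 and 17.48 against 15.02, 15.46 and 15.07 (2.49 ± 0.16, adjusted p = 0.00398, 0.0297 with the block) and leg1.2 by 2.32 ± 0.15. The ferritin-like genes fthl27, fthl28 and fthl29 were higher in males by 1.99, 1.82 and 2.16, and 0 of them were called at these probes with the block (adjusted p = 0.0991, 0.0835 and 0.0635).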
